A study of Mus musculus with 4 samples.

Results

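The genes described here are 10 effectors of mRNA silencing and decay that act after an Argonaute protein has bound its target. They were taken by symbol from the 43629 genes of the deposited count tables, and each of the 10 symbols matched 1 Ensembl gene. They are the scaffold genes Tnrc6a, Tnrc6b and Tnrc6c, the deadenylation genes Cnot1, Pan2 and Pan3, and the decapping and 5′-to-3′ decay genes Ddx6, Dcp1a, Dcp2 and Xrn1. Polyadenylated RNA was sequenced from mouse embryonic stem cells, labelled as blastocyst tissue, whose strain background is 129/Ola. The cells of both groups were kept in serum with LIF, the cytokine that holds such cells in self-renewal. The Drosha knockout group has 2 libraries at passage 7: KO1, in which a proline-rich region of Drosha was deleted, and KO2, in which a region rich in arginine and serine was deleted. The wild-type group has 2 libraries of the E14 line, WT1 at passage 33 and WT2 at passage 42, which the labels call re-used. The knockout titles carry a mark, d5, that the labels do not explain. Genotype, passage and library origin coincide, so their effects cannot be told apart.

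MicroRNAs are cut from primary transcripts by DROSHA in the nucleus, trimmed by DICER and loaded onto Argonaute. Argonaute binds the glycine-tryptophan repeats of TNRC6 proteins (also called GW182), whose silencing domain recruits the CCR4-NOT and PAN2-PAN3 deadenylases. The helicase DDX6 binds the CCR4-NOT scaffold CNOT1, the cap is removed by DCP2 with its activator DCP1A, and the uncapped mRNA is degraded by the exonuclease XRN1. Apart from the TNRC6 proteins, these factors also serve mRNA turnover that needs no microRNA.

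The most abundant microRNAs of mouse embryonic stem cells come from the miR-290 cluster, and several share their seed, the bases that pair with a target, with the miR-302 family. The mature sequences below, from RefSeq on GRCm38.p6, are shown 5′ to 3′ with the seed (bases 2 to 8) in capitals. They show that 1 seed, AAGUGCU, serves all 5.
miR-291a-3p: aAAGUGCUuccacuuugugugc
miR-294-3p: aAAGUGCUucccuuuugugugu
miR-295-3p: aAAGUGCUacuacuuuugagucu
miR-302b-3p: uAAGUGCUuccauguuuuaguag
miR-302d-3p: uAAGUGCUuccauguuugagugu
The reverse complement of this seed, AGCACTT, occurs in the longest annotated 3′ UTR of 4 of the 10 effectors, on the transcript strand, and is absent from the other 6. Among 14141 tested protein-coding genes with an annotated 3′ UTR, 16.9% hold it. The effectors have long 3′ UTRs: 8 of the 10 exceed the median of 1126 bases, and that of Tnrc6b has 11609. Dcp2 holds 5 matches in 7240 bases, or 0.691 per kb, against 0.130 per kb over all these genes. The matches of Tnrc6b, Tnrc6c and Pan3 are shown with 10 bases on either side and the match in capitals (build mm10, GENCODE M21, plus strand).
Tnrc6b site 1, chr15:80931318-80931344: ggaacatgctAGCACTTgtgtgatatc
Tnrc6b site 2, chr15:80935708-80935734: cttttatcccAGCACTTgagaggcaga
Tnrc6c site 1, chr11:117762124-117762150: cggccggccgAGCACTTggacgtggtg
Pan3 site 1, chr5:147547043-147547069: acagactccaAGCACTTgcaactgatg
Tnrc6b site 2 lies in the longer run CCCAGCACTT, as does 1 of the Dcp2 matches. Of 2970 matches over all tested 3′ UTRs, 349 (11.8%) lie in that run. A match is a run of letters and does not show that a microRNA binds there.

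The libraries held 29264632 to 42322129 counts. Drosha itself had 158 CPM (counts normalised to library size, with TMM factors) in either KO library, against 364 and 357 CPM in WT1 and WT2, with a log2 fold change of -1.19 ± 0.11 (SE; edgeR adjusted p = 0.0482). The transcript was thus still detected in the knockouts. Gene counts do not show which part of it was deleted. The KO libraries, which carry different deletions, differed by 2.26 times the variance that counting gives (chi-square over its degrees of freedom), against 167 times for the WT libraries. For 9 of the 10 effectors KO1 and KO2 did not differ beyond counting error (chi-square of the counts, unadjusted p of at least 0.05), the exception being Dcp2, whereas WT1 and WT2 differed for all 10. Of all genes whose 2 libraries together held 50 counts or more, 14.3% differed between the KO libraries and 77.6% between the WT libraries at an unadjusted p under 0.05, so the effectors lie near that background. Whether a group's libraries are separate cultures is not stated in the labels, and the p-values below reflect no more than how these 4 libraries varied. All 8 stem cell markers looked at were expressed, and their summed level was 6390 and 6490 CPM in KO1 and KO2 against 5638 and 6844 CPM in WT1 and WT2. That sum holds opposite directions. Both KO values lay above both WT values for 3 of the 8 and below for 4, where 36.5% and 34.8% of all tested genes did. Dppa5a, the largest part, had 2181 and 2292 CPM against 1576 and 1735.5 CPM. Nanog had 491 and 489 CPM against 616 and 720 CPM. In edgeR 0 of the 8 passed. Summed levels of 9 endoderm markers were 68.6 and 68.2 CPM in the KO libraries against 242 and 416 CPM in the WT libraries, and 3 of the 8 tested fell. For 5 neurectoderm markers they were 112 and 113 CPM in the KO libraries and 59.0 and 68.1 CPM in the WT libraries, and 2 rose. Tubb3 was the largest part, with 73.2 and 71.3 CPM in the KO libraries against 30.5 and 35.5 CPM in the WT libraries. Its log2 fold change was 1.13 ± 0.14, and 0.15 ± 0.23 with trends of each library against transcript GC content and length taken out. For Pax6, which also rose, these values were 2.47 ± 0.33 and 2.63 ± 0.31. The median of the 5 markers was 0.88, and 0.07 with trends removed. Without trend removal the fitted change was above 0 for 4 of these markers and below 0 for Map2. For 8 fibroblast markers the summed levels were 1495.5 and 1482.6 CPM in the KO libraries and 996 and 1701 CPM in the WT libraries. Of the 6 tested, 0 passed. That sum is mostly Fn1, with 1447 and 1438 CPM in the KO libraries against 963 and 1674 CPM in the WT libraries. Dcn, Col3a1, Postn and Lum were counted almost only in the KO libraries. Dcn had 51 and 24 counts in KO1 and KO2 against 0 in either WT library, and Col3a1 47 and 14 against 1 and 0. Postn had 22 and 8 counts and Lum 5 and 3, each against 0 in either WT library. Col1a1, Col1a2 and Thy1 were counted in every library. Col1a1 had 77 and 80 KO counts and 45 and 14 WT counts. Col1a2 had 36 and 16 against 16 and 10, and Thy1 1260 and 1843 against 1257 and 932. The part of these differences in the effector results was not tested, and in bulk RNA fewer cells of a type cannot be told apart from less RNA per cell.

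In the knockouts Ddx6 and Dcp2 fell, to 55.3% and 54.2% of the wild-type level, and the other 8 effectors did not pass the test (edgeR quasi-likelihood test, Benjamini-Hochberg adjustment over 17022 genes, threshold 0.05). No effector rose. Over all tested genes 5.45% were called, with 1.94% lower in the knockouts and 3.51% higher. Cnot1 missed the threshold narrowly, and Xrn1, Dcp1a and Pan3 also had lower values in both KO libraries than in either WT library. In all, 9 effectors had non-overlapping groups, where 71.2% of all tested genes did: 7 with the knockouts lower (34.8% of all genes) and 2 with the knockouts higher (36.5%). An unadjusted p under 0.05 was reached by 6 effectors, all of them lower, where 37.1% of all genes reached it in either direction and 17.7% in the lower one. The fitted change was below 0 for 7 effectors and for 50.8% of all genes. The median log2 fold change (KO over WT) was -0.60 over the 10 effectors and -0.02 over all tested genes. The calls depended on the fit: with trends of each library against transcript GC content and length taken out, or with the KO libraries summed as 1 sample, 0 effectors and 0 of all genes were called (edgeR). Those fits had 4301 and 1888 genes at an unadjusted p under 0.05, among them 5 and 0 of the effectors, and DESeq2 called 5 effectors (all lower) and 3851 genes. The DESeq2 calls were 22.6% of all tested genes. Without WT1 or without WT2 most effectors and most of all genes passed in edgeR, since the spread then comes from the KO pair alone. Fitted changes of the effectors then went both ways, and Tnrc6b was at 0.79 without WT1 and at -0.42 without WT2.

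**Figure D1:**
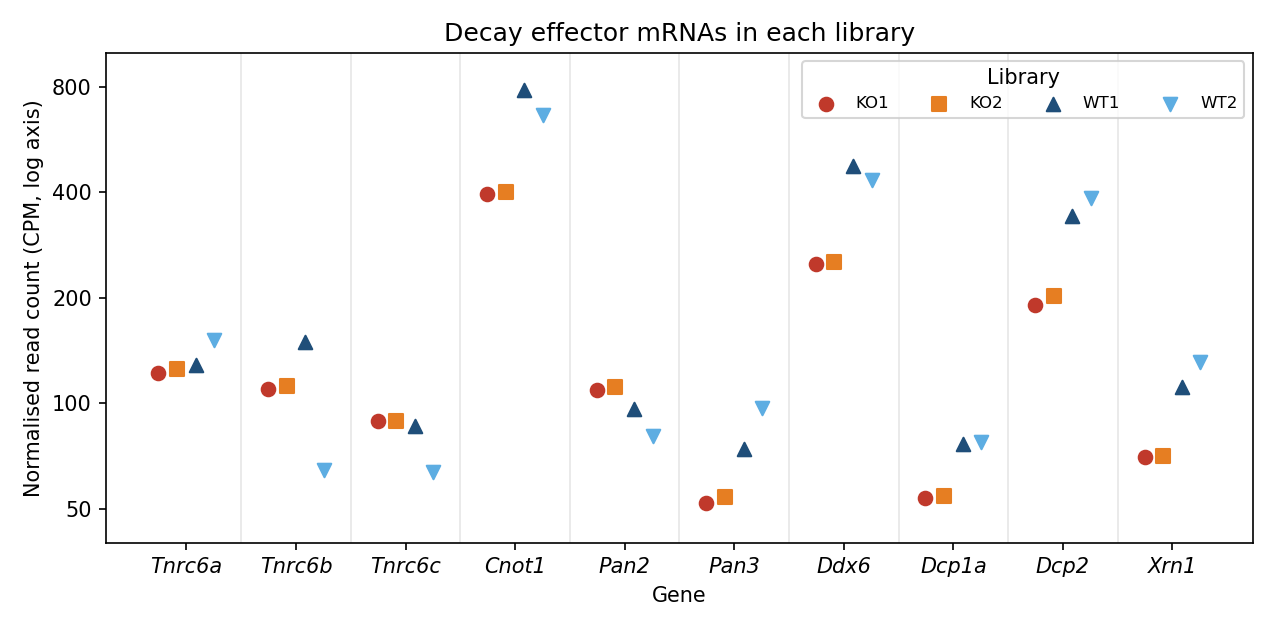
Normalised read count (CPM, log axis) of each of the 10 effectors in KO1, KO2, WT1 and WT2, with 1 point per library. The KO points nearly coincide for every gene and lie below both WT points for 7 genes, while Tnrc6b has its KO points between WT1 at 149 CPM and WT2 at 64.4 CPM.

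The TNRC6 scaffolds, the proteins that carry the signal from Argonaute to the deadenylases, showed no called change. Tnrc6a (ENSMUSG00000052707, chromosome 7, 123123885 to 123195296, build mm10) had 122 and 125 CPM in KO1 and KO2, against 129 and 151 CPM in WT1 and WT2. The KO values lay just below the WT values without overlapping, and the log2 fold change was -0.18 ± 0.14 (SE; edgeR adjusted p = 0.379). With those trends removed it was 0.14 ± 0.15, so its direction depends on that step, and without trend removal it was -0.05 without WT2 and -0.29 without WT1. Exons of other genes on the same strand overlap 143 exonic bases of Tnrc6a and 82 of Tnrc6b.

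Tnrc6b (ENSMUSG00000047888, chromosome 15, 80711313 to 80941085) was at 110 and 112 CPM in KO1 and KO2, against 149 and 64.4 CPM in WT1 and WT2. The WT libraries lay on either side of the KO libraries, and the means were 111 ± 1.397 CPM for the knockouts and 107 ± 59.9 CPM for the wild types (SD, n = 2 each). The log2 fold change of 0.06 ± 0.42 (edgeR adjusted p = 0.932) was smaller than its error, and it was -0.42 without WT2 and 0.79 without WT1. Chromosome 15 as a whole differed between the wild types, with a median log2 ratio of WT2 over WT1 of -0.61 over 666 genes, against -1.21 for Tnrc6b. Tnrc6c (ENSMUSG00000025571, chromosome 11, 117654289 to 117763439) was at 89.2 CPM in each of KO1 and KO2, against 86.1 and 63.8 CPM in WT1 and WT2. The KO values were above both WT values, by little over WT1, and the log2 fold change was 0.25 ± 0.19 (edgeR adjusted p = 0.368). It was 0.06 without WT2 and 0.48 without WT1.

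Among the deadenylation genes, Cnot1 and Pan3 lay lower in the knockouts and Pan2 lay higher, with 0 of 3 called. Cnot1 (ENSMUSG00000036550, chromosome 8, 95719451 to 95807464) encodes the scaffold on which the CCR4-NOT complex is built. It had 396 and 401 CPM in KO1 and KO2, against 782 and 665 CPM in WT1 and WT2. The groups were well apart, yet the log2 fold change of -0.86 ± 0.14 had an edgeR adjusted p of 0.05004, just above the threshold. Cnot1 was called with RLE size factors (adjusted p = 0.0491), with no filter on low counts (0.0233) and in DESeq2 (0.00109), and it was at -0.43 ± 0.09 with trends removed (adjusted p = 0.110).

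PAN2 is the catalytic subunit and PAN3 the adaptor of the other deadenylase, and PAN3 is the subunit that contacts TNRC6. Pan3 (ENSMUSG00000029647, chromosome 5, 147430161 to 147548502) was at 51.9 and 53.8 CPM in KO1 and KO2, against 74.2 and 96.9 CPM in WT1 and WT2. The log2 fold change was -0.69 ± 0.18 (edgeR adjusted p = 0.0760). Pan2 (ENSMUSG00000005682, chromosome 10, 128303335 to 128321358) was at 109 and 111 CPM in KO1 and KO2, against 96.0 and 80.5 CPM in WT1 and WT2. Its log2 fold change was 0.32 ± 0.14 (edgeR adjusted p = 0.178), and it was 0.21 without WT2 and 0.45 without WT1. The subunits of the PAN2-PAN3 pair thus had fitted changes of opposite sign, which they kept with trends removed, at -0.35 ± 0.21 for Pan3 and 0.28 ± 0.09 for Pan2. The difference between them was not tested.

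The decapping and decay genes gave the only calls, 2 of 4, where 1.94% of all tested genes were called lower. All 4 were lower in both KO libraries than in either WT library, where 34.8% of all tested genes were. Ddx6 (ENSMUSG00000032097, chromosome 9, 44604892 to 44640731), which encodes the DEAD-box helicase that links CCR4-NOT to decapping, had 249.9 and 253.8 CPM in KO1 and KO2, against 475 and 435 CPM in WT1 and WT2. The means were 252 ± 2.76 CPM for the knockouts and 455 ± 28.5 CPM for the wild types (SD, n = 2 each), and the log2 fold change was -0.85 ± 0.12 (edgeR adjusted p = 0.0482). This call was lost with trends removed (-0.38 ± 0.12, adjusted p = 0.172), with the KO libraries summed (-0.83 ± 0.42, adjusted p = 0.512), with upper-quartile scaling or library totals alone (adjusted p = 0.0521 and 0.0601), and without KO1 or KO2 (adjusted p = 0.534 and 0.464).

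Dcp2 (ENSMUSG00000024472, chromosome 18, 44380502 to 44424969), the gene of the decapping enzyme, had 191 and 203 CPM in KO1 and KO2, against 341 and 386 CPM in WT1 and WT2. The means were 197 ± 8.42 CPM for the knockouts and 364 ± 31.8 CPM for the wild types (SD, n = 2 each), and its log2 fold change was -0.88 ± 0.13 (edgeR adjusted p = 0.0482). The call did not hold with trends removed (-0.37 ± 0.09, adjusted p = 0.123), with the KO libraries summed (-0.86 ± 0.42, adjusted p = 0.499), with upper-quartile scaling or library totals alone (adjusted p = 0.0520 and 0.0542), or without KO1 or KO2 (adjusted p = 0.535 and 0.434). Its 3′ UTR holds the most 7-base seed matches of the 10 genes.

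Dcp1a (ENSMUSG00000021962, chromosome 14, 30479535 to 30527063) encodes the activator that works with DCP2. It had 53.8 and 54.4 CPM in KO1 and KO2, against 76.5 and 77.6 CPM in WT1 and WT2. Both groups were tight, and the log2 fold change was -0.51 ± 0.11 (edgeR adjusted p = 0.0651), and -0.29 ± 0.09 with trends removed (adjusted p = 0.161). Xrn1 (ENSMUSG00000032410, chromosome 9, 95954760 to 96057803), the gene of the cytoplasmic 5′-to-3′ exonuclease, had 70.4 and 70.7 CPM in KO1 and KO2, against 111 and 131 CPM in WT1 and WT2. The fitted log2 fold change was -0.78 ± 0.14 (edgeR adjusted p = 0.0529), and with trends removed it was -0.18 ± 0.14. Of its exonic bases 4.24% overlap exons of genes on the opposite strand, and 132 exonic bases of Cnot1 do so too. The libraries were reverse-stranded, but whether strand was used in counting is not stated.

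**Figure D2:**
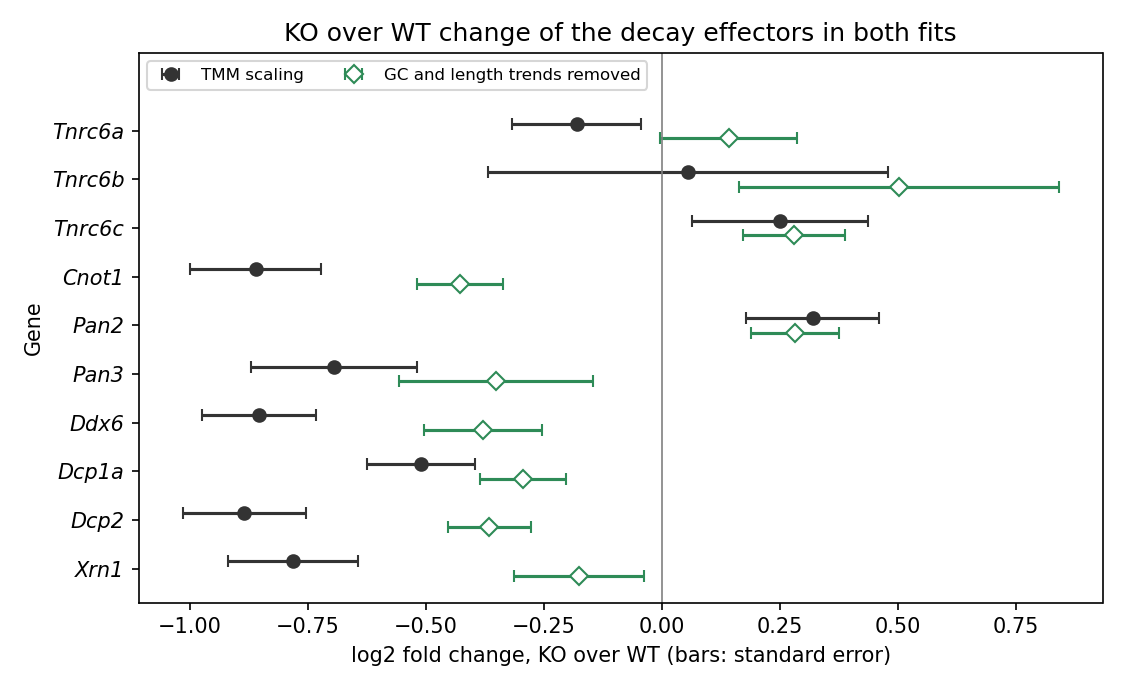
Log2 fold change (KO over WT, x axis) of the 10 effectors with its standard error, from the fit with TMM scaling (filled circles) and with GC and length trends removed (open diamonds). Removing the trends brings Ddx6 to -0.38 and Dcp2 to -0.37, and takes Tnrc6a from -0.18 to 0.14.

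Fold changes followed transcript GC content over the whole transcriptome. The Spearman correlation between GC content of the longest transcript and the log2 fold change was 0.65 across 16903 genes, which share the same 4 libraries and are not independent. With the genes cut into 4 near-equal groups by GC content, the median log2 fold change was -0.54, -0.28, 0.15 and 0.82 from the lowest to the highest. Dcp2, Ddx6 and Xrn1 lie in the lowest of these groups, at 42.7%, 43.4% and 41.9% GC, and 84.6% of its 4226 genes had a fitted change below 0. Cnot1, Dcp1a, Pan3, Tnrc6a and Tnrc6b lie in the next, and Pan2 and Tnrc6c, which had positive values, lie in the third. The order of the effectors thus follows the trend in sign except for Tnrc6b. By definition a group median has as many genes below it as above it. Tnrc6a, Tnrc6b, Pan2 and Tnrc6c lay above the median of their group, and Ddx6, Dcp2, Xrn1, Cnot1, Pan3 and Dcp1a lay below it. After removal of the trends these 6 genes remained below 0, between -0.43 and -0.18, and the other effectors were above 0. Of all 17022 tested genes, 9032 were below 0 after that step. The median over all 10 effectors was then -0.24, against -0.04 over all tested genes.

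**Figure D3:**
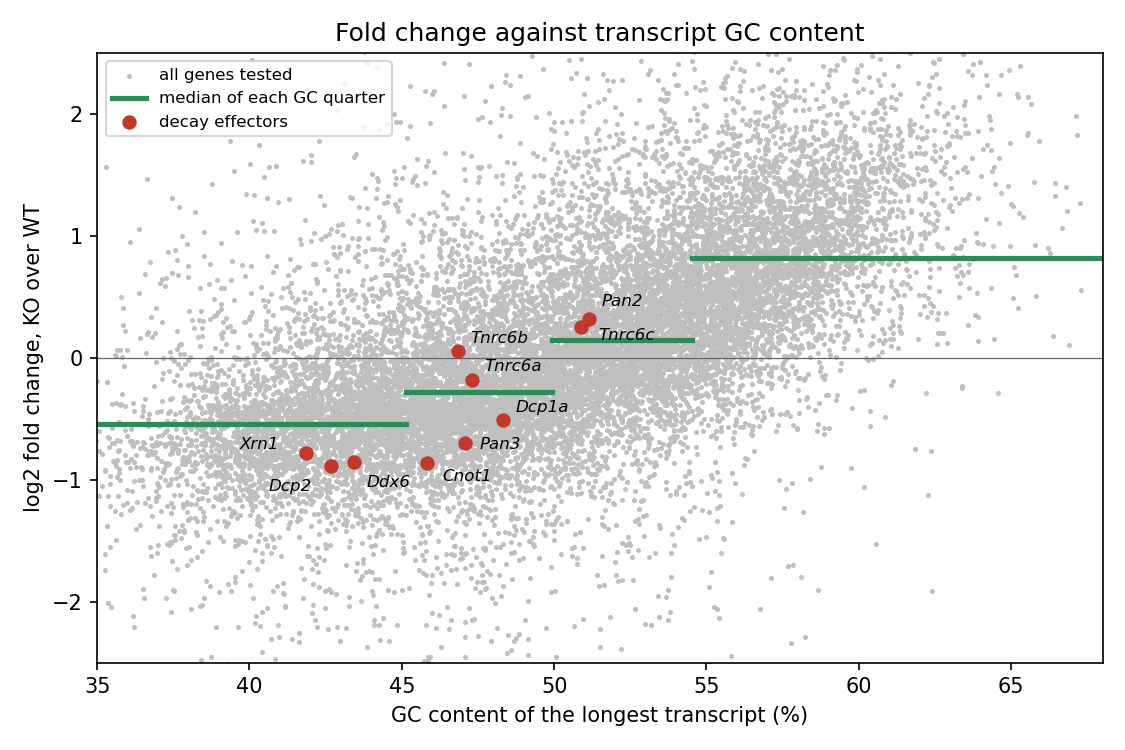
Log2 fold change (KO over WT, y axis) against GC content of the longest transcript (%, x axis), with tested genes in grey, effectors in red and green lines at the median of each of 4 near-equal GC groups. Dcp2, Ddx6 and Xrn1, with the lowest GC content of the effectors, lie between -0.88 and -0.78, and 416 of 16903 genes lie outside the frame.

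Per kb of annotated exon, Ddx6 was the most abundant of the effectors, with 31.3 ± 0.343 CPM per kb in the knockouts, against 56.6 ± 3.55 CPM per kb in the wild types (SD, n = 2 each). Cnot1 had 23.2 ± 0.246 CPM per kb in the knockouts and 42.1 ± 4.81 CPM per kb in the wild types. Dcp2 had 22.6 ± 0.967 CPM per kb in the knockouts and 41.8 ± 3.66 CPM per kb in the wild types, so by exon length Cnot1 and Dcp2 did not differ beyond their spread in either group. Pan2 came next in the knockouts at 13.0 ± 0.125 CPM per kb, and it had 10.4 ± 1.29 CPM per kb in the wild types. Tnrc6a followed at 9.72 ± 0.207 CPM per kb in the knockouts and had 11.01 ± 1.26 CPM per kb in the wild types, where Pan2 and Tnrc6a were within their spread. Levels of the other 5 genes ran from 3.53 CPM per kb for Pan3 to 6.95 CPM per kb for Tnrc6c in the knockouts, and from 4.51 CPM per kb for Tnrc6b to 9.36 CPM per kb for Dcp1a in the wild types. The lower 4 of them in the wild types, Xrn1, Tnrc6c, Pan3 and Tnrc6b, were within their spread of each other by exon length. The wild-type range from Tnrc6b to Ddx6 was 12.6-fold. By the length of the longest transcript it was 14.001-fold, and Cnot1 rather than Ddx6 was highest. On that scale the wild-type means were 86.2 CPM per kb for Cnot1 and 42.2 CPM per kb for Dcp2, so their closeness depends on the length used. So does the grouping of the lower 4, which were at 15.4 CPM per kb for Pan3, 11.8 for Xrn1, 6.47 for Tnrc6c and 6.16 for Tnrc6b.

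Other genes of the same pathway were read from lists fixed by name, 65 genes in all, of which 3 rose and 3 fell, where 5.45% of all tested genes were called. Their median log2 fold change was -0.18, against -0.02 over all tested genes, and -0.07 with trends removed. Of the 10 other CCR4-NOT subunits 0 were called at an adjusted p under 0.05 in edgeR, and the median was -0.40. An unadjusted p under 0.05 was reached by 2 of them, where 37.1% of all tested genes reached it. Cnot4, a RING-type ubiquitin ligase of the complex, had the smallest p, with 38.8 and 39.9 CPM in KO1 and KO2 against 58.0 and 64.6 CPM in WT1 and WT2 (log2 fold change -0.64 ± 0.13, edgeR adjusted p = 0.0588, and 0.08 with trends removed). With trends removed, the median of these subunits was 0.13 and Cnot1 was at -0.43. Of the 10 other subunits 2 were then below 0, at -0.84 and -0.48, both lower than Cnot1.

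Among 15 deadenylation adapters and poly(A) proteins, Nanos3 rose and Zfp36l1 fell, with a median of -0.03. NANOS3, an RNA-binding protein of germ cells, had 4.44 and 4.55 CPM in KO1 and KO2, against 0.501 and 0.333 CPM in WT1 and WT2 (20 and 12 counts). Its log2 fold change was 3.42 ± 0.33 (edgeR adjusted p = 0.0482), and 2.69 ± 0.26 with trends removed. Zfp36l1, whose protein brings deadenylases to AU-rich elements, had 87.4 and 86.8 CPM in KO1 and KO2, against 160 and 148 CPM in WT1 and WT2. The log2 fold change was -0.83 ± 0.12 (edgeR adjusted p = 0.0482), and -0.72 ± 0.12 with trends removed.

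Among 17 further decapping factors Lsm4 rose, 0 fell and the median was -0.09. Both KO values lay above both WT values for 8 of the 17 and below for 7, where 36.5% and 34.8% of all tested genes did. LSM4, a subunit of the LSM ring that binds deadenylated mRNA, had 94.6 and 89.0 CPM in KO1 and KO2, against 39.0 and 28.5 CPM in WT1 and WT2. Its log2 fold change was 1.44 ± 0.20 (edgeR adjusted p = 0.0482), and 0.30 ± 0.09 with trends removed, at a transcript GC content of 59.4%.

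Of 10 genes of other 5′-to-3′ and quality control decay, Smg1 fell and 0 rose, with a median of -0.29. SMG1, the kinase of nonsense-mediated decay, had 174 and 181 CPM in KO1 and KO2, against 396 and 346 CPM in WT1 and WT2. The fitted log2 fold change was -1.06 ± 0.13 (edgeR adjusted p = 0.0482), and -0.56 ± 0.09 with trends removed. Among 9 partners of translational repression Gigyf2 fell and Zfp598 rose, with a median of -0.46. GIGYF2, which joins the cap-binding protein 4EHP in repression, had 116 and 122 CPM in KO1 and KO2, against 224 and 264 CPM in WT1 and WT2 (log2 fold change -1.04 ± 0.14, edgeR adjusted p = 0.0482, and -0.83 with trends removed). Gigyf2 lies on chromosome 1, where the median log2 fold change over 1070 genes was -0.51. Against single wild types the median of the KO mean was -0.17 over WT1 and -0.69 over WT2. The median log2 ratio of WT2 over WT1 on that chromosome was 0.54. ZNF598, the ubiquitin ligase of collided ribosomes encoded by Zfp598, had 146 and 141 CPM in KO1 and KO2, against 80.8 and 74.6 CPM in WT1 and WT2. Its log2 fold change of 0.88 ± 0.12 (edgeR adjusted p = 0.0482) turned to -0.25 ± 0.16 with trends removed. None of the 4 Argonaute genes was called in edgeR, and 1 had an unadjusted p under 0.05, where 37.1% of all tested genes did. Ago3, with the smallest p, had 21.9 and 24.95 CPM in KO1 and KO2 against 45.3 and 34.9 CPM in WT1 and WT2. Its log2 fold change was -0.77 ± 0.19 (edgeR adjusted p = 0.0742), and -0.17 ± 0.17 with trends removed, at a transcript GC content of 41.8%. DESeq2 called 18 of the 65 genes, where it called 22.6% of all tested genes.

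**Figure D4:**
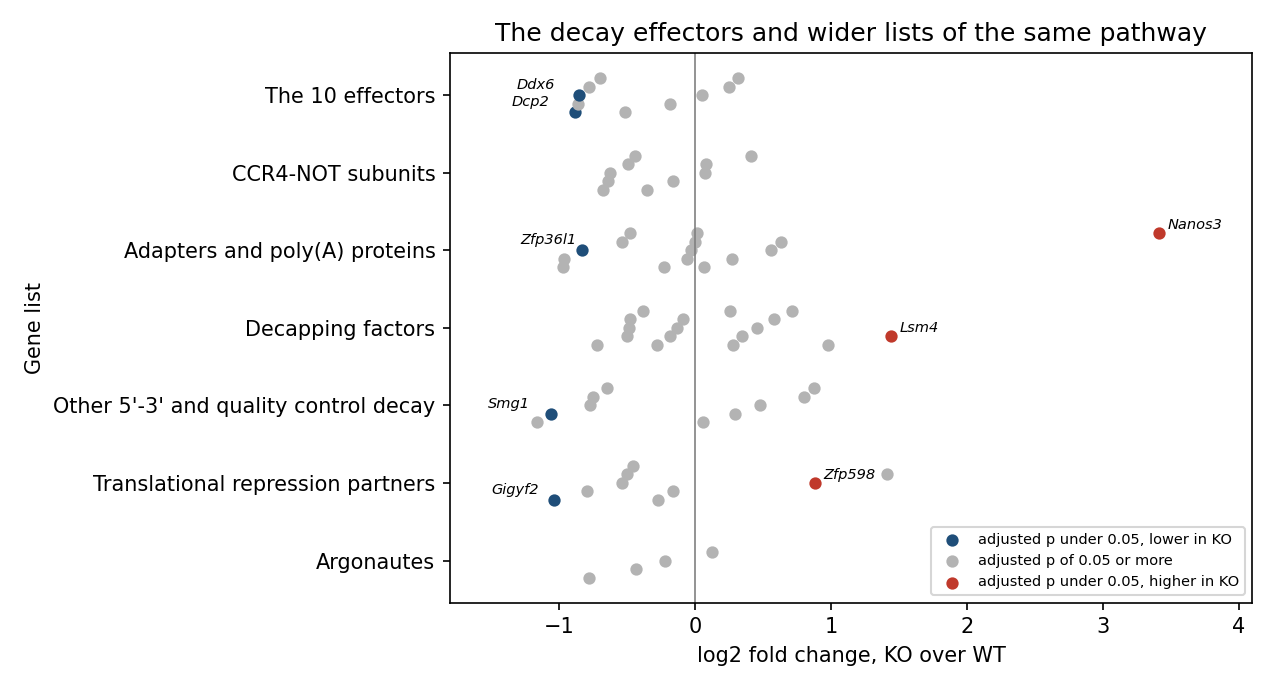
Log2 fold change (KO over WT, x axis) of the 10 effectors and of 6 wider lists of the pathway, 1 point per gene, with called genes coloured and named. Ddx6 and Dcp2 are the called effectors, and the 6 called genes of the wider lists are 3 to the right and 3 to the left of 0.

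The effectors with the seed match did not share a direction. Log2 fold changes of the 4 genes with AGCACTT were -0.88 for Dcp2, -0.69 for Pan3, 0.06 for Tnrc6b and 0.25 for Tnrc6c, and those of the 6 genes without it ran from -0.86 for Cnot1 to 0.32 for Pan2. Over all tested genes with a 3′ UTR the median was -0.21 with the match and 0.06 without it, and the part of the GC trend in that difference was not tested. Whether any of these matches is used cannot be read from gene counts.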

How the data were processed

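RNA taken up in Trizol was made into reverse-stranded TruSeq libraries, per the labels. The authors deposited raw counts of reads per Ensembl gene, unnormalised. Per the submitters' processing notes, reads were aligned to mm10 with STAR 2.4.2a and counted with featureCounts 1.4.5-p1. Which annotation release and counting options served is not given in the sources used here. Positions, exon lengths, GC content and 3′ UTRs came from GENCODE M21, which may not be the annotation behind the counts.

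Counts were fitted with edgeR 4.0.16 (TMM scaling, expression filter with minimum count 10, quasi-likelihood test of group alone, Benjamini-Hochberg adjustment, threshold 0.05). The fit was also run on simulated counts with the same spread in both groups and no GC trend. These libraries differ from that setting in both respects, so that run does not bear on the calls here. Trends were lowess curves (span 0.3) against GC content and exon length, removed as offsets. Alternatives were DESeq2 1.42.0, 3 other scalings, no filter, each library left out, the KO libraries summed, a replicate block and trend removal. The 10 genes, the lists and the tests were chosen with earlier results of these data known. Genes named from a wider list were up to 2 raised and 2 lowered members past the threshold, and where none passed, its gene of smallest p.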

Additional observations from a re-analysis of the deposited data

How the results depend on the processing

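All calls had an adjusted p near the threshold, with 0.0482 the smallest over all genes. Counts of called genes (927), called effectors (2) and called genes of the wider lists (6) fell to 0 each with library totals alone, upper-quartile scaling, the KO libraries summed, trends removed, and the replicate block with trends removed. DESeq2 gave 3851, 5 and 18, and no filter on low counts 2663, 4 and 12. Leaving out 1 library gave 0 to 13658, 0 to 10 and 0 to 58, with the low ends without KO1 (22 genes without KO2) and the high ends without WT1 (12089, 8 and 55 without WT2), when the spread comes from the KO pair alone. For the scalings, DESeq2 and the filter the cause was not tested.

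Log2 fold changes kept their sign for Ddx6 and Dcp2 under all 13 alternatives. Both missed the threshold with library totals (-0.71 and -0.74), upper-quartile scaling (-0.82 and -0.85), the KO libraries summed (-0.83 and -0.86), trends removed (-0.38 and -0.37) and trends with the replicate block (-0.37 and -0.37). Drosha did so at -1.05, -1.15, -1.17, -1.35 and -1.35 in that order. Without 1 library Ddx6 ran from -0.91 to -0.79, Dcp2 from -0.97 to -0.78 and Drosha from -1.20 to -1.17, with the calls lost without KO1 or KO2. Signs turned for Tnrc6a with trends removed (0.14, and 0.15 with the block) and for Tnrc6b without WT2 (-0.42, and 0.79 without WT1).

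With library totals the median log2 fold change of all genes was 0.13, against -0.02 with TMM. Replicate numbers of the labels do not mark a shared culture, and same-numbered libraries hardly deviated together (r = 0.05 over 17022 genes). The replicate block gave 1929 called genes and 3 called effectors, with Cnot1 added. Matching 6 bases (GCACTT) in place of 7 gave 7 effectors with a match in place of 4. Among tested protein-coding genes with an annotated 3′ UTR, 32.3% held the 6-base match and 16.9% the 7-base match.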
